A study of Mus musculus with 23 samples.

Results

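The olfactory receptor windows are the rows of the count tables whose gene symbol is Olfr followed by a digit, with the exception of Olfr78. They numbered 1247 of 41388 windows, and each is a stretch of 3 kb at the transcription start site of 1 gene. Counts come from DNA of male C57Bl/6 mice, sheared and captured with MethylMiner, in which a methyl-CpG binding protein on beads retains DNA that carries methylated CG pairs. The left ventricle of the heart gave 4 libraries from mice on a control diet without resistant starches, 4 from mice on a diet high in resistant starches (high fibre) and 3 from mice given 100 mM magnesium acetate in drinking water. The spleen gave 4 libraries of each diet. All mice were housed singly, ate their diet from 3 weeks before a minipump operation to the end of the study, and so shared that operation, whose contents the labels do not give. Whether the libraries of a group came from separate mice is not stated in the labels, and p-values therefore reflect library-to-library spread, some of which may be technical.

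Olfactory receptors are G protein-coupled receptors that detect odorants on the cilia of sensory neurons in the nose. A mature olfactory neuron expresses 1 allele of 1 receptor gene, and in the other cells of the body most of these genes lie in silent chromatin. The receptors couple through Gnal to adenylyl cyclase and to a cyclic nucleotide-gated channel. Class I receptors resemble those of fish and often detect water-soluble acids, while class II receptors make up the rest of the mammalian family. A few members have been reported outside the nose, in heart, kidney, sperm and immune cells among other places.

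All 1247 windows were matched to RefSeq genes of build GRCm38.p6, 1235 by symbol and 12 by a synonym. RefSeq lists 1101 of them as protein coding and 146 as pseudogenes. By the family number in their MOR synonyms, 144 belonged to class I and 1057 to class II, and 46 had no such synonym. They lay on 18 chromosomes, with 350 on chromosome 2, 260 on chromosome 7, 136 on chromosome 9 and 103 on chromosome 11. Genes less than 1 Mb apart formed 52 genomic groups, of which 21 held at least 10 genes each and 1137 windows together. The largest group, 269 windows at chr2:85330967-90401674, included 1 class I gene. The class I genes sat almost entirely in 1 group of 144 windows at chr7:102476773-105369317, which held 138 of the 144. The median distance to the nearest other receptor gene was 12.2 kb, and 48 genes had a neighbour of the family within 3 kb, so that their windows can overlap. Those 48 windows had a median of 2.57 CPM in control heart, against 4.67 CPM for the other 1199; CPM are library-scaled counts with TMM factors.

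CG pairs are the sequence that the capture protein binds when methylated. RefSeq promoters of 300 bases, from 250 before to 50 after the gene start, were available for 938 of the windows. Their median was 1 CG pair, against 14 in the promoters of the other windows, and 314 of them (33.5%) held none, against 3.36% of the others. Promoters with 5 or more CG pairs made up 3.52% of the receptor promoters and 74.6% of the others. The promoters shown here, all from GRCm38.p6, written 5′ to 3′ on the strand of the gene with CG pairs in capitals, belong to 3 windows that were higher in heart on high fibre (Olfr147, Olfr347, Olfr659), 2 that were lower there (Olfr279, Olfr283) and 2 that were lower in heart than in spleen (Olfr212, Olfr1447).
Olfr147: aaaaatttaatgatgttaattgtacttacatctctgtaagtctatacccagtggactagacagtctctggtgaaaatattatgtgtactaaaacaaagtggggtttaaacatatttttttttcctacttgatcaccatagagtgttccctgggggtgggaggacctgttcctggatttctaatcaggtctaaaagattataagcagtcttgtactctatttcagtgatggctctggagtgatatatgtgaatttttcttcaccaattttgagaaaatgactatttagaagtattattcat
Olfr347: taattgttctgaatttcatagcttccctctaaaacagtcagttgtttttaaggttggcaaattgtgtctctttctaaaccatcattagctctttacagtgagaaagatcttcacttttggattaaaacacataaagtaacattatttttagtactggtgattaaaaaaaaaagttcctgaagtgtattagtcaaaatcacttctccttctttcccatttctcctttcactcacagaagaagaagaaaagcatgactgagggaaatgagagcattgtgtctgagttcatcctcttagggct
Olfr659: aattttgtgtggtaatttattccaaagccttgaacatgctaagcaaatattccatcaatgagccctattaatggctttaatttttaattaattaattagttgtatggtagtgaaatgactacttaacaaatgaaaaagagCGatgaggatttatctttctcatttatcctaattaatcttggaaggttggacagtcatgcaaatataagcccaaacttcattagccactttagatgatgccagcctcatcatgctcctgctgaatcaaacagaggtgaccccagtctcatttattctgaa
Olfr279: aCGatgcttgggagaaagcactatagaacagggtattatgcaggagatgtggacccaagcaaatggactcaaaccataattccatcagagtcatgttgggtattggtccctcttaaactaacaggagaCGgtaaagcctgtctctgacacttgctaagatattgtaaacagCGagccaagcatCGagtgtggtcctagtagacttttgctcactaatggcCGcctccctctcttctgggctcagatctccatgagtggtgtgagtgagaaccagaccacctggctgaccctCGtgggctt
Olfr283: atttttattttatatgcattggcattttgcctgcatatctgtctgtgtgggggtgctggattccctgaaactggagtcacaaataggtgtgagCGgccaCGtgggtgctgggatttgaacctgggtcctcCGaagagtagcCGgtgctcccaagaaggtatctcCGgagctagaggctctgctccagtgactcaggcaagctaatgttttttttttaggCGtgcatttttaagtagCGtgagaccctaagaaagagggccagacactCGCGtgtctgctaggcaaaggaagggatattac
Olfr212: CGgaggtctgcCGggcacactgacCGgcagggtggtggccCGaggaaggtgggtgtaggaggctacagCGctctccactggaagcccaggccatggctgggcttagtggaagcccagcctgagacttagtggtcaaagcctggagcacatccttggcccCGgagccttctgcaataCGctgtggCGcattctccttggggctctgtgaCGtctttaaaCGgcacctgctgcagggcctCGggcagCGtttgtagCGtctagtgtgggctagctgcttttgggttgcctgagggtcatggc
Olfr1447: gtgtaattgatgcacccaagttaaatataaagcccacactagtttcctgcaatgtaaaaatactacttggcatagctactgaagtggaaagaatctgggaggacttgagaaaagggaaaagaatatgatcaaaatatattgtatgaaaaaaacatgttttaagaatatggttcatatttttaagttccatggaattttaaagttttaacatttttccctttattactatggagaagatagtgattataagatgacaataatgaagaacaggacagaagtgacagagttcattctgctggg

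These stretches lie at chr9:38401461-38401760 (plus strand), chr2:36734073-36734372 (plus), chr7:104670454-104670753 (plus), chr15:98497224-98497523 (plus), chr15:98379148-98379447 (minus), chr6:116506266-116506565 (plus) and chr19:12901729-12902028 (minus). The Olfr147, Olfr347 and Olfr1447 promoters held 0 CG pairs and that of Olfr659 held 1. Olfr279 had 6, Olfr283 had 9 and Olfr212 had 13, the most of any receptor promoter. The sequences of the first 3 are 34.0% to 34.3% G and C, and that of Olfr212 is 62.3%. Across receptor promoters the median G and C content was 35% against 57% in the others. Of 2 motifs linked to receptor promoters in olfactory neurons and searched on both strands, CCCNNGGG, the core bound by Ebf factors, occurred in 28 receptor promoters (2.99%) and in 15.4% of all promoters, and TAATTA, a homeodomain core, occurred in 175 (18.7%) and in 4.58% of all promoters. A match describes the letters in these 300 bases and not binding, and the 3 kb windows reach beyond them.

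The 11 heart libraries held 4.12 M to 8.60 M counts each and the 12 spleen libraries 4.36 M to 9.87 M. The median receptor window held 21 to 31 reads in control heart libraries, 39 to 61 on high fibre, 8, 35 and 39 on acetate, and 2 to 8 in spleen. The 5 windows with the most reads took 41.9% to 56.6% of counts in control heart, at most 24.5% on high fibre, 47.9%, 42.2% and 25.3% on acetate, and 53.4% to 67.8% in spleen. The high fibre heart libraries thus stood apart from the control libraries in the spread of their reads over windows. Acetate heart library 1 stood apart from its group: it had no read in 80 receptor windows, against 9 and 10 in the other 2. Markers were set beside the tissue labels: of 10 cardiomyocyte genes, 8 had fewer captured reads in control heart than in spleen and 2 more, and of 10 leukocyte genes, 8 had more and 0 fewer, by edgeR's quasi-likelihood test at an adjusted p under 0.05, where 40.0% of all windows had more and 32.7% fewer.

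Receptor windows as a set took a mean of 0.63% of all counts in control heart and 0.28% in control spleen. Outside the 5 largest windows these shares were 1.21% and 0.73%. How single windows differed between the tissues depended on the scaling, as given below. In heart the receptor windows took the most on high fibre. The CPM sums that follow cannot be compared between tissues. TMM-scaled within a tissue, their summed level was 7009, 8220.1, 7979.7 and 7942 CPM in the 4 control heart libraries. On high fibre it was 9955, 10200.1, 10636 and 11711 CPM, above every control library. The 3 acetate libraries gave 6127, 9245 and 9142 CPM, of which the first lay below and the others above the control range. In spleen all 12 libraries lay between 2721 and 3355 CPM, and the 3 diets overlapped. The log2 ratio of the group means was 0.45 for high fibre over control in heart and 0.01 in spleen, with no test made on a score over the members. As a share of all counts, which includes the largest windows, the heart ratio was 1.14, and as a share of counts outside the 5 largest windows it was 0.56.

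**Figure D1:**
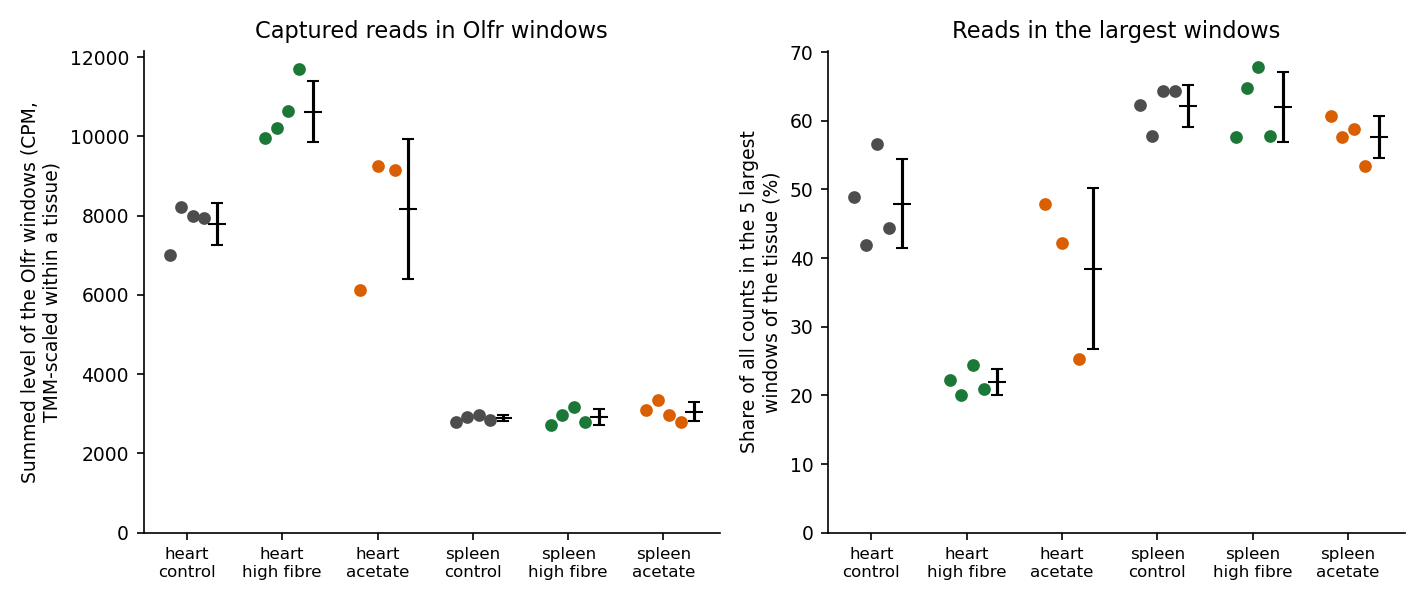
Left, the summed CPM of the 1247 olfactory receptor windows in each of 23 libraries, scaled within a tissue and not comparable between tissues. Right, the share of all counts in the 5 largest windows of the tissue in the same libraries. Points are libraries, and the bars beside them give the group mean and SD. The 4 high fibre heart libraries lie above all control heart libraries on the left and below them on the right.

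Single windows ranged widely in level. In control heart the median receptor window had 4.60 CPM, against 8.94 CPM for the other windows, and 190 windows (15.2%) were above 10 CPM. On high fibre the median was 7.79 CPM and 336 windows exceeded 10 CPM. In control spleen the median was 0.54 CPM against 2.70 CPM elsewhere, and 843 windows (67.6%) were under 1 CPM. The windows of Olfr750, Olfr283, Olfr71, Olfr279 and Olfr314 were highest over the heart libraries, and those of Olfr279, Olfr283, Olfr750, Olfr281 and Olfr212 were highest in spleen. These levels were scaled within each tissue and cannot be compared between heart and spleen. Olfr750 (ENSMUSG00000035932, chr14:51070311-51071442) had 49.1 ± 5.14 CPM (SD, n = 4) in control heart and 43.9 ± 3.05 CPM (n = 4) in control spleen. With counts scaled over both tissues it was lower in control heart than in control spleen, with a log2 fold change of -0.99. Its promoter held 11 CG pairs. At the low end 7 windows had no read in any library: Olfr1413, Olfr1010, Olfr1506 and the pseudogenes Olfr363-ps, Olfr1059-ps1, Olfr1144-ps1 and Olfr831-ps1. How reads that align to several places were counted is not given in the sources used here, and near-identical copies in this family could lose or share reads. Over the 1247 windows the mean levels in control heart and control spleen had a Spearman rho of 0.83, a description across windows that share libraries and sequence composition.

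High fibre against control in heart asks whether the diet goes with a change of captured DNA at these genes. Of the 1247 windows, 1222 passed the count filter, and 555 of these passed an adjusted p of 0.05 in edgeR's quasi-likelihood test, 534 higher and 21 lower on high fibre. Over all 33562 windows tested, 26.2% were called, 12.6% higher and 13.6% lower. The receptor windows were called higher in 43.7% of cases, above that background, and lower in 1.72%. In the same comparison, 1 of 10 cardiomyocyte marker windows rose and 3 fell (median log2 fold change -0.15), 2 of 10 leukocyte marker windows rose and 3 fell (-0.28), and 0 of 4 tested erythroid marker windows rose and 3 fell (-0.43). The part of the cell types in the receptor result was not tested. Their median log2 fold change was 0.71, with quartiles of 0.33 and 1.10, against 0.02 over all windows, and 1094 of 1222 had a positive value. In 613 windows every high fibre library lay above every control library, and in 27 every one lay below, against 16.6% and 17.1% of all windows tested. The number called depended on single libraries and on the scaling: 162 without control library 1, 171 without high fibre library 4, 326 without control library 3, 332 without high fibre library 3, 1157 with library totals alone, 116 after cyclic loess normalization and 2 with 1 surrogate variable in the model. All 534 windows that rose kept a positive value after cyclic loess and 404 with the surrogate variable. The median stayed between 0.62 and 0.77 when any 1 library was left out, fell to 0.31 after cyclic loess and to 0.03 with the surrogate variable. Capture counts cannot tell more methylated copies in some cells from more methylation in all of them. Without an input library they also cannot tell either from a change in the capture or in background reads, which was not tested.

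**Figure D2:**
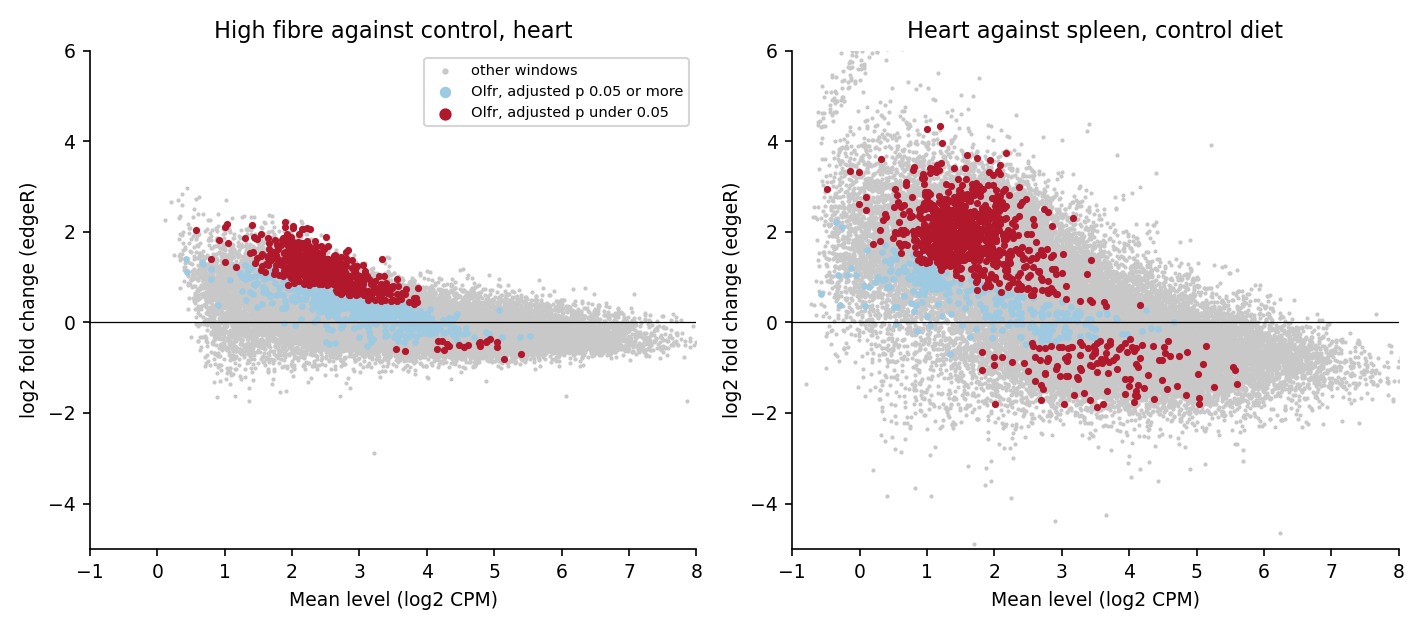
Log2 fold change against mean level for all windows tested (grey) and the olfactory receptor windows (light blue, adjusted p of 0.05 or more; red, under 0.05), for high fibre against control in heart (left) and heart against spleen on the control diet (right). A few windows beyond the axis limits are not drawn. Most receptor windows lie at low levels, where both comparisons are mostly positive, and the windows below 0 lie at higher levels.

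The windows with the smallest p among those that rose were Olfr1454, Olfr800, Olfr347, Olfr659, Olfr309, Olfr1165-ps, Olfr1532-ps1, Olfr701, Olfr147 and Olfr1279. All but Olfr659 are class II, and Olfr1165-ps is a pseudogene in RefSeq. Olfr1454 (ENSMUSG00000094986, chr19:13063413-13064336) had 2.13, 1.82, 2.89 and 2.86 CPM on control, 8.01, 7.24, 9.28 and 10.8 CPM on high fibre and 1.49, 5.06 and 4.48 CPM on acetate. The control and high fibre libraries did not overlap, and the acetate libraries spanned the control range and the gap above it. The fold was 3.69, with a log2 fold change of 1.88 ± 0.30 (SE) and an adjusted p of 0.00274 in edgeR.

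Olfr347, one of the promoters without a CG pair, had 0.457, 2.64, 2.44 and 1.72 CPM on control and 5.82, 7.24, 8.56 and 8.75 CPM on high fibre. Every high fibre library lay above every control library, and the log2 fold change was 2.10 ± 0.39 (adjusted p = 0.00507, edgeR). Olfr659, the class I gene of this set, gave 0.761, 1.98, 2.44 and 1.72 CPM on control against 6.55, 5.80, 6.85 and 8.89 CPM on high fibre. Again the groups did not overlap. For Olfr147 the control values were 1.83, 4.79, 2.00 and 2.67 CPM and the high fibre values 6.92, 7.79, 7.71 and 10.6 CPM, with a log2 fold change of 1.53 ± 0.30. Olfr1279 stood at a higher level, with 10.4, 10.4, 8.89 and 8.40 CPM on control and 15.8, 17.6, 15.8 and 15.3 CPM on high fibre, and changed by 0.75 ± 0.15 (adjusted p = 0.00519). In spleen the same windows held between 0 and 2.71 CPM in all 12 libraries, except Olfr309, which is described below.

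Of the 21 windows that fell, 10 are named: Olfr279, Olfr283, Olfr215, Olfr156, Olfr646, Olfr284, Olfr718-ps1, Olfr1390, Olfr463 and Olfr1512. They were among the windows with many reads, since the 21 had a median of 27.6 CPM in control heart and the 534 that rose a median of 3.20 CPM. Olfr279 (ENSMUSG00000054036, chr15:98497474-98498406) gave 52.1, 40.5, 45.1 and 39.5 CPM on control, 30.6, 23.9, 25.4 and 21.5 CPM on high fibre and 50.4, 30.0 and 30.1 CPM on acetate. All high fibre libraries lay below all control libraries, with a log2 fold change of -0.81 ± 0.15 (adjusted p = 0.00518, edgeR). Olfr283 (ENSMUSG00000056184, chr15:98378096-98379197) had 55.3, 48.3, 53.8 and 45.5 CPM on control and 32.9, 31.0, 34.1 and 26.2 CPM on high fibre. Its groups did not overlap either, and the log2 fold change was -0.71 ± 0.14 (adjusted p = 0.00518). In spleen both windows stayed at 35.5 to 60.6 CPM in every library. The fall was relative to the bulk of windows: scaled by library totals, 19 of the 21 had a positive fold change and 0 were called lower, while the median of all windows moved to 0.71.

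**Figure D3:**
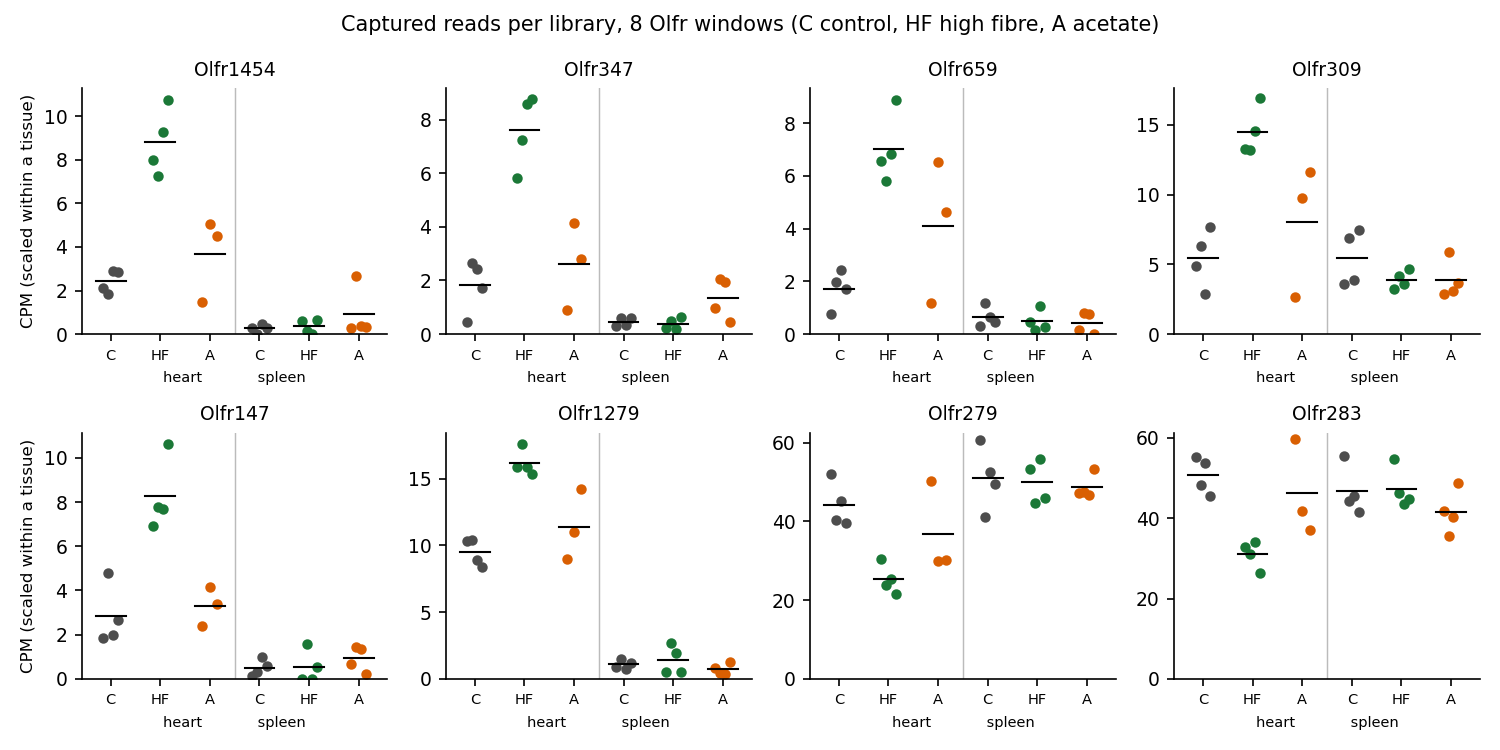
CPM, scaled within a tissue, of 8 olfactory receptor windows in each library of heart (left of the line) and spleen (right). Points are libraries and the short lines are group means. The first 6 windows are higher on high fibre in heart than on control, and Olfr279 and Olfr283 are lower there while their spleen libraries of the 3 diets overlap.

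Of 15 receptors known from other studies and listed for naming, 14 were in the table. Olfr16, also called MOR23 and reported in sperm and muscle, rose with high fibre in heart from 7.52 ± 2.54 to 11.7 ± 2.16 CPM (SD, n = 4 each), a log2 fold change of 0.66 ± 0.23 with an adjusted p of 0.0371 in edgeR. Its high fibre values of 9.47, 14.3, 10.6 and 12.6 CPM overlapped the control values of 5.48, 5.95, 7.56 and 11.1 CPM. Olfr111 rose from 3.66 to 7.13 CPM (0.98 ± 0.28, adjusted p = 0.0186) and Olfr160, a receptor for acetophenone, from 2.98 to 6.19 CPM (1.05 ± 0.35, adjusted p = 0.0332), both without overlap. The other 11 did not pass. Olfr558, a class I receptor reported in vascular smooth muscle, had 4.79 ± 1.17 CPM on control and 4.76 ± 0.83 CPM on high fibre, with a log2 fold change of 0.00 ± 0.27. Olfr544, a receptor for azelaic acid, had 10.2 ± 0.78 and 11 ± 0.61 CPM (0.11 ± 0.15), and Olfr1393, reported in the kidney, 12.3 ± 2.2 and 14.1 ± 1.59 CPM (0.18 ± 0.15). Olfr1507, also called MOR28, gave 5.68 ± 0.80 and 6.66 ± 1.05 CPM (0.24 ± 0.25). Olfr73, a eugenol receptor, gave 3.58 ± 0.70 and 5.14 ± 0.34 CPM (0.53 ± 0.30), and an adjusted p of 0.184.

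By class, 40 of 142 tested class I windows rose and 4 fell, with a median log2 fold change of 0.38. Of 1037 class II windows, 480 rose and 17 fell, and the median was 0.76. Class I windows also started higher, at a median of 7.36 CPM in control heart against 4.32 CPM for class II. Library by library, the class II median was 3.20, 4.79, 4.44 and 4.77 CPM on control and 6.73, 7.06, 7.56 and 8.60 CPM on high fibre. The class I median was 6.85, 7.77, 7.44 and 7.07 CPM on control and 9.65, 9.96, 9.42 and 10.4 CPM on high fibre. Neither class overlapped between the diets. The order of the class medians held with every scaling and filter run except the surrogate variable, which gave 0.09 for class I and 0.02 for class II. Pseudogenes had a median of 0.82 and protein coding genes 0.69.

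Genomic groups of the family moved to different extents. The 9 class II genes at chr15:98186011-98498406, which include Olfr279 and Olfr283, had a median window of 34.7, 31.4, 29.1 and 27.9 CPM on control and 24.2, 23, 23.5 and 19.9 CPM on high fibre, without overlap. Of these 9, 5 fell and 0 rose, and the median log2 fold change was -0.38. In the group of 8 at chr4:43695000-43855463 1 fell and 0 rose (median -0.27), and in the group of 25 at chr11:58454915-59614225 5 fell and 2 rose (median -0.10). Over all windows tested 12.6% rose and 13.6% fell, and neither group was tested against those shares. At the other end, the 38 genes at chr9:18754692-20336094 had library medians of 1.37, 3.06, 2.22 and 2.67 CPM on control and 4.82, 5.07, 5.99 and 6.67 CPM on high fibre. There 23 of 35 tested windows rose and 0 fell, with a median of 1.22. In the 269-gene group of chromosome 2, 148 of 262 rose and 0 fell (median 0.95), and in the class I group of chromosome 7, 38 of 142 rose and 3 fell (median 0.39). The groups on chromosomes 15 and 4 also had the highest median level in control heart among the groups of at least 8, at 31.3 and 20.6 CPM. Neighbouring windows share sequence and chromatin and are not independent.

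**Figure D4:**
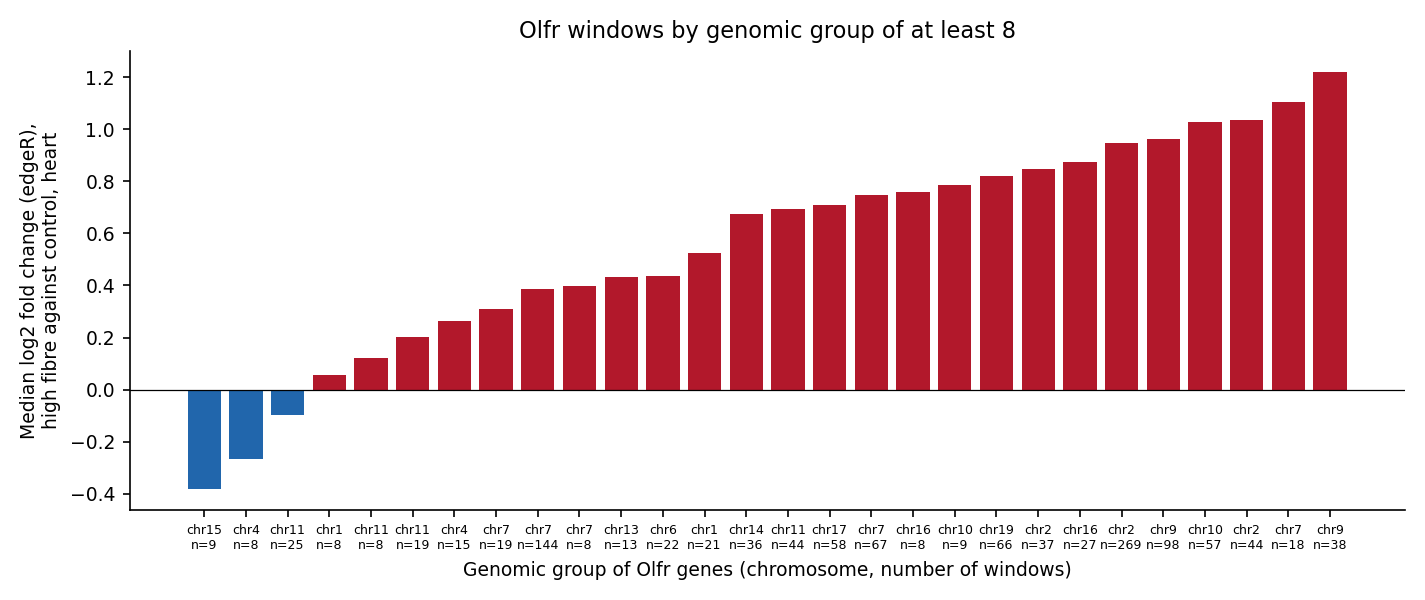
Median log2 fold change of high fibre against control in heart for each genomic group of at least 8 olfactory receptor genes. Bars are ordered by their value and labelled with the chromosome and the number of windows. The group of 9 on chromosome 15, that of 8 on chromosome 4 and that of 25 on chromosome 11 are below 0. The other groups drawn for chromosomes 4 and 11 are above 0. The largest medians belong to groups on chromosomes 9, 7 and 2.

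Fold changes were lower in windows with more CG pairs and with more reads, among receptor windows and elsewhere. Receptor windows with 0 CG pairs in the promoter had a median log2 fold change of 0.82 and those with 1 pair 0.80, falling to 0.58, 0.40 and 0.38 with 2, 3 and 4 pairs and to -0.22 with 5 or more. In the other windows the medians ran 0.47, 0.29, 0.17, 0.00, -0.06 and -0.09 over the same steps. With 0 pairs, 160 of 312 receptor windows rose (51.3%) and 0 fell, against 27.9% and 2.64% of the other windows with 0 pairs. With 5 or more pairs 2 of 31 rose (6.45%) and 7 fell (22.6%), near the 8.05% and 19.8% of the other windows of that class. In control heart the 0 pair windows had library medians of 2.89, 4.46, 4.22 and 4.58 CPM, and on high fibre 6.37, 6.88, 7.35 and 8.53 CPM. The windows with 5 or more pairs gave 18.1, 16.4, 17.8 and 15.1 CPM on control and 15.3, 15, 14.0 and 15.1 CPM on high fibre. The diets did not overlap for the 0 pair windows, and they overlapped for those with 5 or more.

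All windows tested were split by mean level into 10 bins of equal size, from the lowest (bin 1) to the highest (bin 10). In bin 2 the 358 receptor windows had a median log2 fold change of 1.11 and the 2998 other windows 0.53. The medians were 0.79 and 0.37 in bin 3, 0.47 and 0.22 in bin 4, and -0.24 and -0.21 in bin 8, which held 25 receptor windows. In bin 2, 63.4% of receptor windows and 25.6% of the others were called higher. Cyclic loess, which removes trends of fold change with level, left medians of 0.37 for receptor windows with 0 CG pairs and 0.18 for the other windows with 0 pairs, and the surrogate variable left 0.07 and -0.01. The number of reads in the largest windows moved with the diet in the same libraries, as given above, and its part in these changes was not tested.

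**Figure D5:**
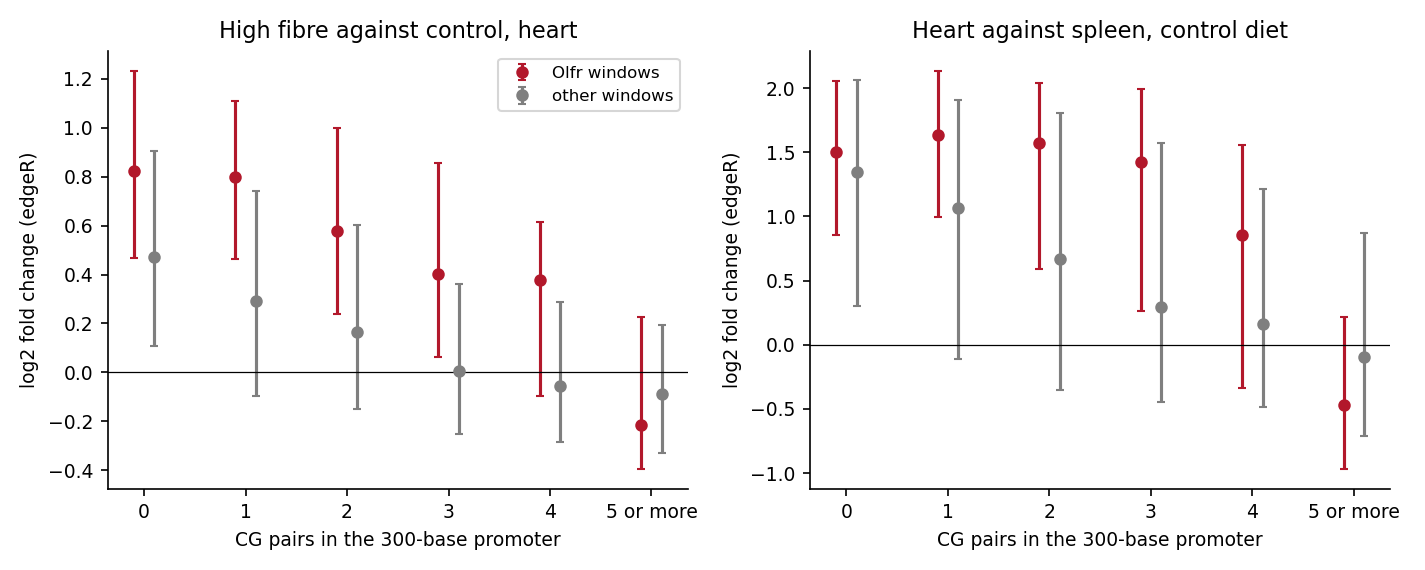
Median log2 fold change, with quartiles as bars, by the number of CG pairs in the 300-base promoter for olfactory receptor windows (red) and other windows (grey). Left, high fibre against control in heart; right, heart against spleen on the control diet. In both panels the medians are lowest at 5 or more pairs, and the receptor windows are above the others up to 4 pairs; after cyclic loess that order turns for 0 pairs on the right, at 0.02 and 0.07.

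Acetate against control in heart called 0 receptor windows in edgeR, as over all windows (0.0% called), and 34 of 1222 (2.78%) had an unadjusted p under 0.05, near the 2.5% of all windows. The median log2 fold change was 0.16, against 0.02 over all windows. DESeq2 also called 0. Leaving out acetate library 1, the library with many empty receptor windows, raised the median to 0.39 and the count to 46, of which 45 were higher. The smallest p-values belonged to Olfr958 (0.55 ± 0.15), Olfr539 (0.71 ± 0.20) and Olfr742 (1.12 ± 0.34), on the positive side, all with an adjusted p of 1.00. Library medians of all receptor windows were 2.38, 6.33 and 6.03 CPM on acetate, against 3.50, 5.12, 4.67 and 5.16 CPM on control, so that 1 acetate library lay below all controls and 2 lay above them.

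High fibre against acetate in heart called 9 receptor windows, 8 higher and 1 lower, or 0.736% of those tested, under the 1.38% called over all windows. The median log2 fold change of the 1222 tested was 0.52, and 423 (34.6%) had an unadjusted p under 0.05, against 27.1% of all windows. All windows were called higher in 0.188% of cases and lower in 1.19%. In 341 receptor windows every high fibre library lay above every acetate library and in 19 below, against 10.3% and 11.1% of all windows. The 8 were Olfr701, Olfr619, Olfr535, Olfr1259, Olfr1280, Olfr618, Olfr397 and Olfr161, and Olfr322 was lower. Olfr701 had 5.82, 7.61, 5.71 and 6.60 CPM on high fibre and 1.19, 2.53 and 2.16 CPM on acetate. The groups lay apart, with a log2 fold change of 1.64 ± 0.33 and an adjusted p of 0.0488 in edgeR. Olfr619 and Olfr618, neighbouring class I genes on chromosome 7, changed by 1.05 ± 0.24 and 0.95 ± 0.23. Olfr322 had 16.7, 19.0, 18.3 and 12.8 CPM on high fibre and 34.9, 23.3 and 24.1 CPM on acetate (-0.69 ± 0.17, adjusted p = 0.0497). All 9 lay close to the threshold, and the count went to 0 without any of high fibre libraries 1 to 4 or control libraries 2 to 4, to 3 without acetate library 1, to 84 and 131 without acetate libraries 2 and 3, to 16 without control library 1, to 105 higher and 0 lower with library totals, to 2 with totals outside the 5 largest windows, and to 28 without the count filter. It was 0 after cyclic loess and with the surrogate variable, and DESeq2 called 0 higher and 6 lower.

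In spleen 408 receptor windows passed the filter. For high fibre against control, acetate against control and high fibre against acetate, edgeR called 0 of them, as it did over all 24871 windows (0.0%), and DESeq2 called 0 as well. Unadjusted p-values under 0.05 numbered 6, 14 and 19 (1.47%, 3.43% and 4.66%), near the 2.02%, 3.51% and 3.31% of all windows. The median log2 fold changes were -0.02, 0.01 and -0.02. The smallest p for high fibre against control belonged to Olfr401 (0.52 ± 0.18, adjusted p = 1.00). The median receptor window held 2 to 8 reads in a spleen library, and the 839 windows that did not pass the filter were not tested there.

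The difference between the tissues in the high fibre effect was tested as an interaction over all 23 libraries, with counts scaled over both tissues. Olfr309 (ENSMUSG00000054054, chr7:86306185-86307111), a class II receptor, was the 1 window called of 1225 tested, where 0.0559% of all windows were called. On this scale it had 3.22, 4.16, 1.91 and 5.05 CPM in control heart and 8.75, 8.70, 9.59 and 11.2 CPM in high fibre heart, which did not overlap. In spleen it had 5.59, 9.85, 5.70 and 10.7 CPM on control and 4.99, 5.93, 4.96 and 6.94 CPM on high fibre, which overlapped. The log2 difference of the 2 effects was 1.88 ± 0.39, with an adjusted p of 0.0479 in edgeR. Over the alternatives the adjusted p lay between 0.00222 and 0.245, above 0.05 after cyclic loess and with the surrogate variable. Leaving out a library put it above 0.05 for 17 of the 23, among them heart control libraries 1 to 3, all heart high fibre libraries and all spleen high fibre libraries. The median difference was 0.61 over receptor windows and -0.03 over all windows. An unadjusted p under 0.05 was found for 217 receptor windows (17.7%), near the 16.4% of all windows.

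Between the tissues, most receptor windows had more reads in heart with TMM scaling. Within spleen alone 408 receptor windows passed the count filter, so many of the 1225 tested here entered through their heart reads. A window that entered this way could be called higher in heart but hardly lower, which limits the counts by direction below. On the control diet 919 of 1225 tested windows were called, 797 higher in heart and 122 lower, where 72.7% of all windows were called and 40.0% and 32.7% of all 33982 windows were called in those directions. The median log2 fold change was 1.5, against 0.20 over all windows, with quartiles of 0.71 and 2.08. Every heart library lay above every spleen library in 709 windows and below in 104, against 36.2% and 30.8% of all windows. On high fibre 1004 were higher and 107 lower (median 2.41; 80.7% of all windows were called, 45.1% higher and 35.6% lower), and on acetate 692 were higher and 100 lower (median 1.28; 63.0% of all windows, 34.0% higher and 29.0% lower). The 3 comparisons use different libraries: 605 windows were higher in heart on all 3 diets (49.4%, against 29.6% of all windows) and 87 were lower on all 3 (7.10%, against 26.9%). This split depended on the scaling. With library totals alone 1076 windows were higher and 26 lower on the control diet, and after cyclic loess 132 higher and 153 lower with a median of 0.06. On high fibre the loess counts were 264 higher and 108 lower, and on acetate 87 higher and 120 lower. Library totals gave 1181 higher and 6 lower on high fibre and 1088 higher and 16 lower on acetate. Of the 107 windows lower in heart on high fibre, 6 were still called lower with library totals, 90 had a positive value and 63 were called higher, while the median of all windows moved from 0.25 to 1.84. Heart and spleen libraries share numbers in their titles, and whether same-numbered libraries come from the same mouse is not stated; they were fitted as separate samples.

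Named windows higher in control heart were Olfr1342, Olfr1389, Olfr220, Olfr464, Olfr1509, Olfr456, Olfr1392, Olfr459, Olfr427 and Olfr457. Scaled over both tissues, Olfr1342 had 15.9, 11.8, 16.1 and 13.3 CPM in heart and 2.80, 3.66, 1.63 and 3.44 CPM in spleen. Every heart library was above every spleen library, with a log2 fold change of 2.30 ± 0.22 and an adjusted p of 1.02e-10 in edgeR. Olfr456 and Olfr457, neighbours on chromosome 6, had log2 fold changes of 3.75 ± 0.47 and 2.94 ± 0.38. In spleen Olfr456 had 0, 0.282, 0.652 and 1.07 CPM, and in heart 4.74, 8.09, 5.74 and 9.09 CPM. Olfr1389 and Olfr1392, both on chromosome 11, changed by 2.44 ± 0.26 and 2.27 ± 0.29. Among the listed receptors Olfr16 was 2.66 ± 0.39 higher in heart and Olfr1507 2.44 ± 0.41, while Olfr544 (-0.06 ± 0.17) and Olfr15 (0.16 ± 0.16) did not pass the test.

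Lower in heart were Olfr648, Olfr212, Olfr1447, Olfr898, Olfr1124, Olfr474, Olfr214, Olfr1166, Olfr1314 and Olfr281. Olfr648, a class I gene, had 18.8, 15, 15.6 and 13.6 CPM in heart and 52.0, 43.4, 55.9 and 51.6 CPM in spleen, a log2 fold change of -1.68 ± 0.14 (adjusted p = 5.09e-12). Olfr212 (ENSMUSG00000053251, chr6:116506516-116517965), with the CG-rich promoter shown above, had 14.4, 16.5, 15.5 and 13.1 CPM in heart and 63.1, 43.6, 51.2 and 51.8 CPM in spleen (-1.81 ± 0.15). Its neighbour Olfr214 changed by -1.41 ± 0.14. Olfr1447 (ENSMUSG00000060303, chr19:12900849-12901778), with no CG pair in its promoter, had 9.27, 9.63, 11.3 and 8.96 CPM in heart and 29.1, 27.2, 37.8 and 32.2 CPM in spleen (-1.69 ± 0.14). None of these windows overlapped between the tissues. Olfr648, Olfr212, Olfr1447, Olfr898, Olfr214 and Olfr474 were also among the 10 lower windows of smallest p on high fibre and on acetate. Olfr691, a class I member of the listed receptors, was also lower in heart (-1.50 ± 0.18). Over receptor windows the median fell from 1.5 with 0 CG pairs to -0.47 with 5 or more, where 17 of 31 were lower in heart (54.8%) and 7 higher (22.6%). The median of the other windows also fell, from 1.35 with 0 pairs to -0.10 with 5 or more. Of those with 5 or more, 39.7% were lower in heart and 32.4% higher.

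Other chemosensory receptor families were set beside these windows. In heart 82 of 175 vomeronasal type 1 windows (Vmn1r) rose with high fibre and 0 fell (median log2 fold change 0.80). Of 104 type 2 windows (Vmn2r) 54 rose and 0 fell (0.97), and of 32 bitter taste receptor windows (Tas2r) 14 rose and 0 fell (0.75). Of 16 trace amine receptor windows (Taar) 1 rose and 0 fell (0.23). The shares that rose were 46.9% of Vmn1r, 51.9% of Vmn2r, 43.8% of Tas2r and 6.25% of Taar, where 12.6% of all windows rose and 13.6% fell. The Taar share is 1 of 16 windows, too few to set against that background. The families also differed in level, with a median log2 CPM of 2.37 for Vmn1r, 2.08 for Vmn2r, 2.61 for Tas2r and 3.81 for Taar. Of windows outside the olfactory receptors, 25.6% rose in level bin 2, 21.3% in bin 3 and 6.91% in bin 6, which hold these medians. The families were not tested against windows of equal level. The Taar median of 0.23 lay above the 0.02 of all windows. The medians of all these families were positive with every scaling and filter run, apart from the surrogate variable, which gave 0.02 for Vmn1r, -0.0046 for Vmn2r, 0.03 for Taar and -0.09 for Tas2r. Between tissues on the control diet the medians were 1.5 for Vmn1r, 1.60 for Vmn2r and 1.47 for Tas2r, beside 1.5 for the olfactory receptors. The Taar median was lower, at 0.31, beside 0.20 over all windows. After cyclic loess the medians of Vmn1r, Vmn2r and Tas2r were -0.12, -0.10 and 0.02.

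Genes of olfactory transduction and receptor choice were also compared between high fibre and control in heart. Of 32 listed genes, 3 rose (9.38%) and 8 fell (25.0%), beside 12.6% and 13.6% of all windows, and the median log2 fold change was -0.07. Their median level was 4.26 log2 CPM, which lies in level bin 7. Of the windows outside the olfactory receptors, 5.41% rose and 15.9% fell in bin 7, and 4.47% and 25.2% in bin 8. The listed genes were not tested against windows of equal level. Adcy3, the adenylyl cyclase of the cilia, fell from 130 ± 13.4 to 93.8 ± 5.23 CPM (SD, n = 4 each), a log2 fold change of -0.47 ± 0.13 with an adjusted p of 0.0129 in edgeR. Omp, the marker protein of mature olfactory neurons, fell from 54.6 ± 5.29 to 34.4 ± 0.73 CPM (-0.67 ± 0.14), and Rtp2, which helps receptors to the cell surface, from 22.4 ± 1.97 to 17.5 ± 2.92 CPM (-0.36 ± 0.13). Ehmt2, a histone H3 lysine methyltransferase, fell from 95.3 ± 7.64 to 49.1 ± 4.62 CPM (-0.96 ± 0.15). Also lower were Ldb1, Ebf4, Atf5 and Pde4a. Lhx2, a homeodomain factor of receptor choice, rose from 8.18 ± 1.30 to 12 ± 1.66 CPM (0.58 ± 0.19), as did Ebf1 (0.42 ± 0.12) and the adhesion molecule Ncam2 (0.47 ± 0.16). Scaled by library totals, 18 of the 32 were called higher and 0 lower, and the values of Adcy3, Omp and Rtp2 turned to 0.24, 0.04 and 0.34. The G protein subunit Gnal (-0.15 ± 0.13) and the channel subunits Cnga2 (1.26 ± 0.47, adjusted p = 0.0516) and Cngb1 (-0.20 ± 0.11) did not pass.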

How the data were processed

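Captured genomic DNA of 11 heart and 12 spleen libraries was measured. The values the authors deposited are raw read counts per 3 kb window, 1 table per tissue, with no normalization and no pooling. Per the submitters' processing notes, the tools were featureCounts 1.5.1, BWA 0.7.10, bcl2fastq 2.19.1.403 and edgeR 3.16.5, with build GRCm38; how windows were centred, and how duplicate and multiply aligned reads were counted, is not given in the sources used here. Without an input library the counts allow relative comparisons only. All 23 columns of counts were used and 0 were left aside.

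Groups were tissue by diet. Windows were fitted with the quasi-likelihood test of edgeR 4.0.16 (R 4.3.3) on all windows passing filterByExpr at a minimum count of 10, with TMM factors and Benjamini-Hochberg adjustment at 0.05 over all windows tested. The 3 diets of a tissue shared 1 fit, and tissue comparisons came from 1 fit of 23 libraries, so CPM differ between those sections. SE is the absolute log2 fold change divided by the square root of F. Level bins, CG classes and genomic groups are descriptions with no test.

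Alternatives were library totals, totals without the 5 largest windows, DESeq2 1.42.0, cyclic loess with limma 3.58.1 (prior count of 2), no count filter, a minimum count of 20, 1 surrogate variable (sva 3.50.0), a replicate block and each library left out. The edgeR code was tested on simulated counts with planted changes of known size. Called windows are named by p, the 10 smallest in each direction, 3 and 3 where 0 were called, at most 5 each way for the tissue difference, and a list of 15 known receptors. Other lists were 32 transduction and receptor choice genes, the Vmn1r, Vmn2r, Taar and Tas2r families, and cardiomyocyte, leukocyte and erythroid markers, of which 3 of 5 erythroid genes differed between tissues on control, 1 higher and 2 lower in heart. The windows and lists were chosen with earlier results of these data known. Counting error and differences between libraries both enter the tests.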

Additional observations from a re-analysis of the deposited data

Results flagged for a closer look

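In 119 sets of 4 library values of named windows and of the summed level, 5 had 1 library far from the other 3, and chance gives about 1 in 20. In control heart, Olfr15 had a highest library at 16.7 CPM above the next at 14.0 CPM, Olfr110 at 7.33 CPM above 3.97 CPM, and Olfr742 at 4.79 CPM above 2.22 CPM. In high fibre spleen the lowest Olfr92 library had 0.648 CPM below the next at 2.23 CPM, and in acetate spleen the lowest Olfr446 library had 0.684 CPM below 2.51 CPM. Of these 5 windows, Olfr742 was called in high fibre against control in heart (adjusted p = 0.0079, edgeR), and the others were called in no diet comparison of that tissue.

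The high fibre effect of Olfr309 differed between heart and spleen by 1.88 on the log2 scale (adjusted p = 0.0479, edgeR interaction test), with heart libraries higher on high fibre and spleen libraries of the 2 diets overlapping. It was 1 of 1225 receptor windows tested (0.082%), beside 0.0559% of all windows. The adjusted p went above 0.05 in 17 of the 23 fits with 1 library left out, after cyclic loess and with the surrogate variable.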

How the results depend on the processing

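For high fibre against control in heart the count of 555 receptor windows became 1157 with library totals, 116 after cyclic loess and 2 with 1 surrogate variable, and 162 to 827 with 1 library left out, with the lowest counts without control libraries 1 and 3 (162 and 326) and high fibre libraries 4 and 3 (171 and 332). Acetate against control gave 0 to 46 with 1 library left out, the 46 without acetate library 1. High fibre against acetate (9) gave 105 with library totals, 2 with totals outside the 5 largest windows, 0 after cyclic loess and with the surrogate variable, 28 without the filter and 0 to 131 with 1 library left out. Heart against spleen gave 285, 372 and 207 after cyclic loess on control, high fibre and acetate, and 241, 115 and 213 with the surrogate variable. With 1 library left out these were 832 to 960, 1081 to 1121 and 551 to 982. The tissue difference (1) gave 268 with library totals, 2 with totals outside the 5 largest windows, 3 in DESeq2, 0 after cyclic loess and with the surrogate variable, and 0 to 13 with 1 library left out, the highest without spleen control library 1 (13) and heart acetate library 1 (6). The 3 spleen comparisons stayed at 0 in every alternative run. The cause of these moves was not tested.

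Titles give the diets of a tissue the same replicate numbers, and heart and spleen libraries also share a running number, which may mark the same mouse but is not said to. Deviations of same-numbered libraries correlated above 0.1 in 10 of 22 pairs within a tissue, against 11 of 66 pairs with different numbers. Between tissues it was 4 of 11 against 28 of 121. The labels do not state a pairing, and the main fits did not use the numbers, although same-numbered libraries of a tissue correlated more often. With the replicate number as a replicate block for the diets, and the running number for the tissues, the counts were 663 for high fibre against control, 66 for high fibre against acetate, 472 for heart against spleen on acetate and 12 for the tissue difference.

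The summed level ratio (log2) moved to 1.14 as a share of all counts and to 0.56 outside the 5 largest windows for high fibre in heart (0.40 to 0.48 with 1 library left out), to 0.35 for acetate in heart (-0.03 to 0.24) and to 0.26 for acetate in spleen (0.04 to 0.12), and ran from -0.03 to 0.04 for high fibre in spleen.

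Signs turned with library totals for high fibre against control in Olfr215 (0.0837), Olfr156 (0.16), Olfr646 (0.11), Olfr284 (0.16), Olfr718-ps1 (0.18), Olfr1390 (0.0806), Olfr463 (0.11), Olfr1512 (0.23), Olfr90 (0.59) and Olfr691 (0.58). For heart against spleen they turned in Olfr1447 on high fibre (0.0464) and in Olfr90 (0.57) and Olfr544 (0.85) on control. On control Olfr17 turned after cyclic loess (-0.40), and Olfr111 (-0.0669) and Olfr160 (-0.28) with the surrogate variable. In spleen 839 receptor windows had too few reads to be tested. Among windows of all genes that passed the filter, high fibre changes of 1.5-fold, 2-fold, 3-fold and 4-fold were simulated in 50 each. In heart 34.0%, 84.0%, 90.0% and 98.0% were recovered, and in spleen 24.0%, 66.0%, 88.0% and 96.0%. Windows without a planted change were called in 6 cases in heart and 10 in spleen. Recovery was not measured for the receptor windows alone, which have lower levels.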

Other observations

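Receptor windows varied more between libraries than other windows. On log2 (CPM + 0.5), the median SD within groups was 0.49 for receptor windows and 0.25 for the others in heart, and 0.36 and 0.27 in spleen. Receptor windows also had lower levels, with a median of 4.60 CPM against 8.94 CPM in control heart and 0.54 CPM against 2.70 CPM in control spleen. The spread was not compared at equal level, so the part of low counts in it was not tested. In acetate heart library 1 the 38 genes at chr9:18754692-20336094 had a median window of 0.596 CPM, against 4.25 and 3.86 CPM in the other acetate libraries, while the 9 genes at chr15:98186011-98498406 had 41.7 CPM against 25.0 and 27.5 CPM. Control heart library 1 lay on the same side within its group for both, with the lowest value of the chromosome 9 group (1.37 CPM) and the highest of the chromosome 15 group (34.7 CPM).

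The 33 receptor windows with 5 or more CG pairs included all but 1 of the 5 highest in heart: Olfr750, Olfr283, Olfr71 and Olfr279. Olfr1342 was the window with 5 pairs that differed most in favour of heart, with 21.5 CPM in control heart and 1.96 CPM in control spleen on the scale of each tissue. Olfr307, also with 5 pairs, went from 3.82 to 8.53 CPM with high fibre in heart (log2 fold change 1.17, adjusted p = 0.00838, edgeR). Both were picked after their values were seen.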
